A study of Homo sapiens with 10 samples.

Results

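Interferon-stimulated genes were followed across 5 lines derived from A549, a long-established tumour line of human lung epithelium. The set comprised 48 genes listed by name as known targets of interferon, with no measured value in the rule, out of 33551 rows of the count table. Every member was found in the table under its symbol, and 43 passed the filter on low counts. RSAD2, IFI44L, XAF1, EPSTI1 and CXCL10 did not pass it, and they are described by their counts only.

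The study sequenced total RNA from wild-type A549 cells (WT), a line labelled as a knockout of ABCA3 (KO), and lines with the ABCA3 variants L101P, E292V and E690K. The ABCA3 protein pumps phospholipid into lamellar bodies, the surfactant stores of the alveolar type 2 cell. Each line was taken untreated and after an overnight transduction with LV-ABCA3:GFP, a VSV-G pseudotyped lentivirus encoding an ABCA3-GFP fusion, used at a multiplicity of infection (MOI) of 20. The 10 libraries comprised 1 per line and treatment, and each genotype was 1 line, so a line difference is a difference between these cultures. Whether a line was a single clone is not given in the sources used here. All groups shared the A549 background, and no library of cells treated with interferon or with a vector lacking ABCA3 was used here.

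Cells make interferons after their sensors meet foreign nucleic acid: the RIG-I-like receptors detect RNA in the cytosol, and the cGAS-STING route detects DNA. Secreted interferon then acts through its receptors and the kinases JAK1 and TYK2 on a transcription factor complex that includes STAT2 and IRF9 and binds the interferon-stimulated response element (ISRE). Interferon gamma acts through another element, the gamma-activated site (GAS). The induced genes encode sensors, RNA-degrading or RNA-binding effectors, membrane proteins that hinder viral entry or release, and the ubiquitin-like modifier ISG15. In lung epithelium this programme is known as an early defence against respiratory viruses, and many of its genes keep a low basal level without any stimulus.

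Promoter sequences that carry the ISRE core or, for OAS1, a closely spaced form of it are shown for some of the members that differed between lines below. These are OAS3, OAS1, LGALS3BP, PARP14, PARP9 and PLSCR1. ISG15, IFIT1 and IFITM3 are shown as standard reporters of the programme. RefSeq promoter windows on GRCh38.p14, running from 250 bases before to 50 bases after the annotated start, were matched for 39 of the 48 members, 1 of them through an older symbol. Letters in capitals match the ISRE core, which is GAAA and GAAA around 2 bases of any kind, or its form with a single spacer base, GAAANGAAA, on either strand, and a match on the other strand begins with TTTC. Each sequence is written 5′ to 3′ on the gene's own strand. The first line is an upstream stretch of OAS3 on chr12:112938224-112938351, plus strand, which lay outside annotated exons and held both forms in 1 run.
OAS3 upstream: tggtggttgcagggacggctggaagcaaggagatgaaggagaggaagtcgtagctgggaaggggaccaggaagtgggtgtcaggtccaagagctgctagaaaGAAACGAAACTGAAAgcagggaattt
OAS3 at its start, chr12:112938452-112938481, plus strand: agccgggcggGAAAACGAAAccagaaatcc
OAS1, chr12:112906935-112906964, plus strand: cccttctgagGAAACGAAAccaacagcagt
LGALS3BP, chr17:78979962-78979991, minus strand: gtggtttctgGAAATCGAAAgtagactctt
PARP14, chr3:122680800-122680829, plus strand: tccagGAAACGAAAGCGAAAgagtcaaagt
PARP9, chr3:122564322-122564351, minus strand: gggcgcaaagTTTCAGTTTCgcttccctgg
PLSCR1, chr3:146544667-146544696, minus strand: cgggaaccggGAAAAGGAAAccgtgttgtg
ISG15, chr1:1013380-1013409, plus strand: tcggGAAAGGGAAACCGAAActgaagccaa
IFIT1, chr10:89392510-89392539, plus strand: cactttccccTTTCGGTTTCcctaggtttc
IFITM3, chr11:320876-320905, minus strand: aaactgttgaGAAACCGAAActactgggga

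The ISRE core was present in the windows of 25 of the 39 matched members (64.1%), against 4.376% of the 27305 genes in the table. The GAS core TTCNNNGAA was present in 11 of the 39 (28.2%), against 9.376% of all genes. The form with a single spacer base, searched after the first result had been seen, was present in 14 of the 39 (35.9%), against 3.867%, and it can overlap an ISRE core, as in OAS3. The OAS1 window held the single-spacer form and no ISRE core. HERC6 and IRF1, which also differed between lines below, had matched windows with neither form, and that of IRF1 held a GAS core. PARP9 and DTX3L are transcribed in opposite directions from neighbouring starts, and their windows shared 1 match, at chr3:122564332-122564341. These are matches of letters and no measurement of factor binding.

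Depth was lowest in the untreated L101P library, with 59430095 counts, and highest in its transduced counterpart, with 96811421. Levels are given as CPM, the count scaled to the library total. Epithelial markers (EPCAM, KRT8, KRT18, KRT19, CDH1) summed to 5434 to 11462 CPM. Leukocyte markers summed to 4.29 to 7.75 CPM with CD3E at 0 in all libraries, endothelial markers to 0.0985 to 1.02 CPM, and alveolar type 2 markers to 1.24 to 2.20 CPM, so the type 2 programme was near absent. Fibroblast markers, nearly all of them COL1A1, summed to 14.2 to 119 CPM, highest in both E292V libraries.

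The pair labelled KO went against its labels in the readouts of the vector. ABCA3 was at 601 CPM in the library labelled untreated KO and at 25.8 CPM in the library labelled transduced KO, and EGFP was at 37.9 and 0.0492 CPM. EGFP was also counted in the other untreated libraries, at 70.9 CPM in WT, 1.01 in L101P, 20.7 in E292V and 16.3 in E690K, against 153, 35.9, 66.8 and 18.0 CPM in their transduced counterparts. ABCA3 was also lower in the transduced library of L101P, at 1156 and 896 CPM untreated and transduced. It was at 362 and 610 CPM in WT, 992 and 1035 in E292V, and 890 and 968 in E690K. KO below therefore stands for the 2 libraries so labelled, results on the vector are those of libraries as labelled, and calls lost with the labels of the KO pair exchanged are named. Reads of a further reporter, tdTomato, also differed between lines. In CPM, untreated and transduced, they were at 3.88 and 2.90 in WT, 0 and 0 in KO, and 12.7 and 5.60 in L101P. They were at 8.98 and 7.51 in E292V and 7.30 and 8.40 in E690K. The origin of the tdTomato reads was not tested.

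The basal programme was uneven: ADAR, OAS3, LGALS3BP and IFITM2 were well expressed, whereas IFI44L, XAF1, RSAD2 and CXCL10 were at or close to 0. Averaged over the libraries, 20 members lay at 10 CPM or more, 12 between 1 and 10 CPM and 16 below 1 CPM, and 30 to 33 members reached 1 CPM in a library. Summed over the 48 members, the untreated and transduced libraries held 1215 and 1243 CPM in WT, 1324 and 1344 in the line labelled KO, 1371 and 1436 in L101P, 1176 and 1132 in E292V, and 1321 and 1294 in E690K. The L101P sums were the highest and the E292V sums the lowest. Abundant genes weigh most in these sums, so they do not give the level of the typical member. ADAR alone averaged 379 CPM. OAS3 and LGALS3BP averaged 163 and 166 CPM in L101P, against 106 and 121 in WT.

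Levels were compared between genes per kilobase of exon (RPKM, from the union of GENCODE release 29 exons). ADAR, which edits double-stranded RNA, had the highest mean at 39.1 RPKM, followed by the secreted glycoprotein gene LGALS3BP at 35.9 and IFITM2 at 26.5. OAS3 followed at 16.0, TRIM25 at 11.7, IFITM3 at 11.1 and IFI35 at 11.0 RPKM. The median of the tested members was 2.02 RPKM, against 2.78 over the 17180 tested genes with 1 GENCODE symbol. At the low end MX1 had a mean of 0.0840 RPKM and BST2, which encodes the virion-tethering protein tetherin, 0.0660 RPKM. IFI44L and XAF1 were listed at 0 in the 10 libraries, CXCL10, the chemokine for CXCR3-bearing lymphocytes, had a count in 2 libraries only, and 3 counts correspond to 0.0310 to 0.0505 CPM.

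**Figure D1:**
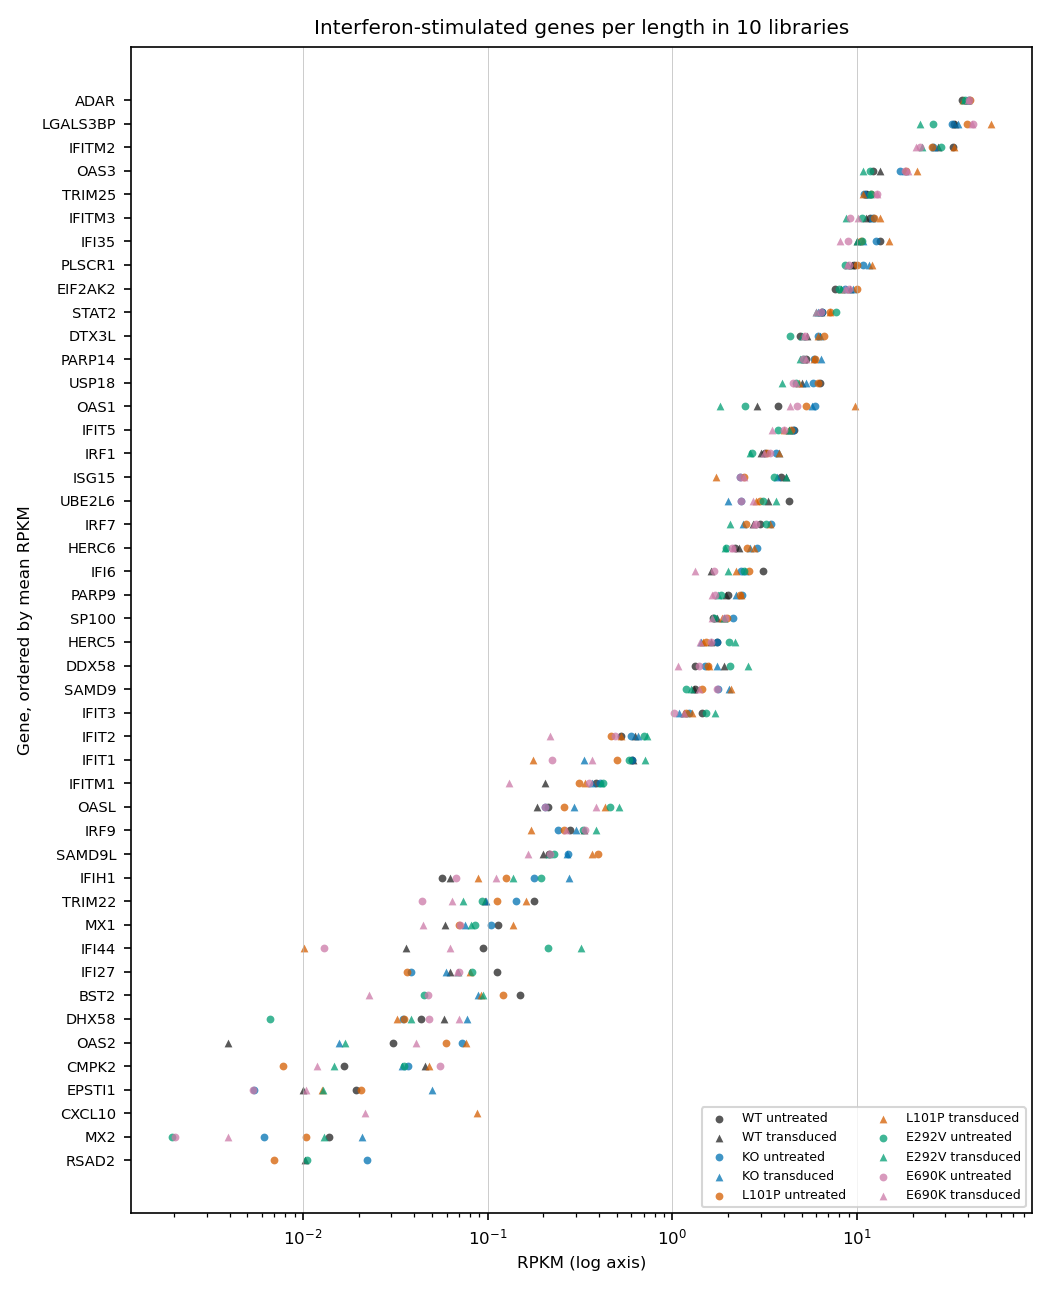
Level per kilobase of exon (RPKM, logarithmic axis) of the interferon-stimulated genes in order of their mean, with 1 point for each of the 10 libraries; libraries at 0, and IFI44L and XAF1, which were at 0 throughout, have no point. ADAR, LGALS3BP and IFITM2 head the order with means of 39.1, 35.9 and 26.5 RPKM, and the points of genes such as IFI44 and OAS2 spread widely on few counts.

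The question asked of the lines was whether the basal level of the programme differed between them. Of the 43 tested members, 10 (23.3%) differed between lines, against 13% of all 17978 genes. The test was edgeR's quasi-likelihood test over the 4 line coefficients at an adjusted p under 0.05. These members were OAS3, OAS1, LGALS3BP, PARP9, DTX3L, PARP14, HERC6, IRF1, PLSCR1 and IFI44. At an unadjusted p under 0.05 there were 23 of the 43 members, against 4616 of the 17978 genes. With the labels of the KO pair exchanged, 7 members were called, against 9.48% of all genes. Of the 10 called members, all but IFI44 had fitted values above WT in both KO and L101P. All but IFI44 had their lowest library in E292V or, for PARP9, in E690K. These patterns were read from the same values that gave the calls, and the share of all called genes that have them is not given here. RNA was taken from whole cultures, so a smaller share of expressing cells and less RNA per cell cannot be told apart. In the fitted contrasts with WT, the median member differed by 0.10 (log2) in KO and 0.16 in L101P, against -0.01 over all genes in both. In E292V it differed by -0.08 and in E690K by -0.07, against 0.00 and -0.02 over all genes. These medians moved with single libraries: that of KO was 0.22 without the untreated and 0.05 without the transduced WT library, and that of L101P 0.26 without its untreated and 0.08 without its transduced library. That of E292V was -0.02 without the untreated WT library, and that of E690K was 0.00 without it. The 4 contrasts share the WT libraries and are not independent of each other. Groupings of lines without overlap that are named below were read from the same values that they describe. The share of all genes that separate in such ways is not given here.

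**Figure D2:**
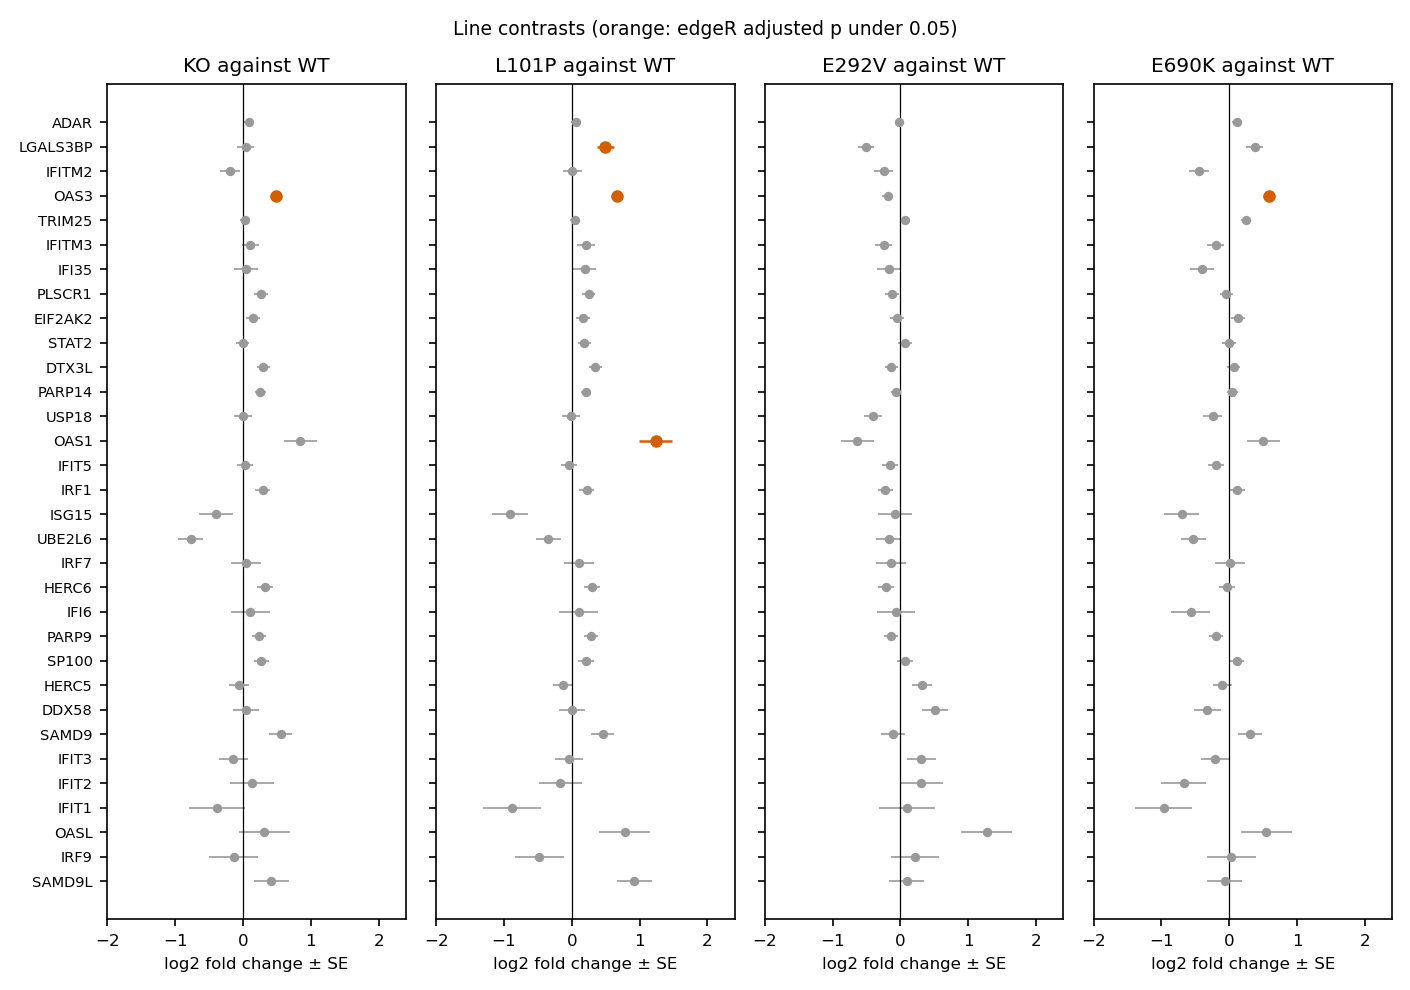
Fitted log2 difference of each line from WT, averaged over vector status, for 32 interferon-stimulated genes averaging 1 CPM or more; bars are the standard error and orange points have an edgeR adjusted p under 0.05. The orange points are OAS3 in KO, L101P and E690K (0.49, 0.66 and 0.58) and OAS1 and LGALS3BP in L101P (1.24 and 0.49), and E292V has none.

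Among the RNA-binding effectors, the oligoadenylate synthetases gave the clearest line pattern. These enzymes make oligoadenylates when they bind double-stranded RNA, and the products activate RNase L. OAS3 (ENSG00000111331.12), the largest of them, lies on the plus strand of chromosome 12 from 112938352 to 112973249 (GRCh38, GENCODE release 29) and had the most counts of the family. In CPM, untreated and transduced, OAS3 was at 101.2 and 110 in WT, 141 and 149 in KO, 151 and 174 in L101P, 97.0 and 88.8 in E292V, and 150 and 155 in E690K. The 6 libraries of KO, L101P and E690K lay above the 4 libraries of WT and E292V without overlap, a grouping read from these same values. OAS3 differed between lines (edgeR adjusted p = 1.3e-04).

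Against WT, OAS3 was higher by 0.66 (log2, SE 0.08, adjusted p = 0.00180) in L101P and by 0.58 (SE 0.08, adjusted p = 0.00179) in E690K. Both calls held in 19 of 19 alternative settings. In KO it was higher by 0.49 (SE 0.08, adjusted p = 0.0136), and this call was lost when any 1 of the untreated or transduced WT or KO libraries was left out (adjusted p from 0.0561 to 0.227). In E292V the difference was -0.19 (adjusted p = 0.457). OAS3 was thus the only member called in KO (1 of 43, against 1.8% of all genes) and the only one in E690K (1 of 43, against 5.38%). At an unadjusted p under 0.05 there were 13 members in KO, against 2532 of all 17978 genes. In E690K there were 9 members, against 3474 of all genes, a share close to that over all genes.

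OAS1 (ENSG00000089127.12) is the next member upstream on the same strand, from 112906777 to 112933222. It was at 18.5 and 14.2 CPM in WT, 29.3 and 28.3 in KO, 26.0 and 48.5 in L101P, 12.2 and 8.96 in E292V, and 23.4 and 21.4 in E690K. The order of lines was that of OAS3 except for the position of E690K below KO, and the transduced L101P library stood far above the rest (95% Wilson interval 46.6 to 50.5 CPM, counting error only). OAS1 differed between lines (adjusted p = 0.00194) and was higher in L101P by 1.24 (log2, SE 0.24, adjusted p = 0.0157). That call was lost without the transduced WT library (adjusted p = 0.125) and without the E690K pair (adjusted p = 0.0519). The OAS1 difference was 0.58 without the transduced and 1.76 without the untreated L101P library. The difference from WT was 0.85 (adjusted p = 0.108) in KO, 0.50 (adjusted p = 0.278) in E690K and -0.64 (adjusted p = 0.347) in E292V.

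The 2 other members of the family had low counts. OAS2, which lies downstream of OAS3, ranged from 0 to 0.475 CPM, and OASL, which lacks synthetase activity, from 0.652 to 1.81 CPM with its highest values, 1.62 and 1.81, in E292V. Neighbours were taken as the tested genes within 1 Mb that lay outside the set and averaged 1 CPM or more. The 17 neighbours of OAS1 had median differences from WT of 0.00 (KO), 0.02 (L101P), -0.08 (E292V) and -0.06 (E690K). Their differences ran from -0.36 to 0.46 in KO, -0.39 to 0.40 in L101P, -0.36 to 0.14 in E292V and -0.92 to 0.19 in E690K. By edgeR 1 was called in KO, 2 in L101P and 0 in E292V and E690K, against 1.8%, 3.94%, 1.05% and 5.38% of all genes. A part of the region in the OAS3 and OAS1 differences was not tested.

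The other RNA-binding effectors passed no line test. ADAR ranged from 359 to 395 CPM, and EIF2AK2, which encodes the kinase PKR, from 81.3 to 107 CPM. The IFIT genes, whose proteins bind viral RNA ends, differed in level: IFIT2 ranged from 0.896 to 2.99 CPM and IFIT3 from 2.70 to 4.49 CPM, whereas IFIT5 ranged from 13.9 to 18.4 CPM. IFIT1, a gene commonly used as a reporter of interferon, was at 2.78 and 2.83 CPM in WT, 2.77 and 1.53 in KO, 2.32 and 0.816 in L101P, 2.69 and 3.29 in E292V, and 1.03 and 1.69 in E690K (any-line adjusted p = 0.263). The lines overlapped for IFIT1, and its lowest library was that with the highest OAS1.

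LGALS3BP (ENSG00000108679.12), located on chromosome 17, positions 78971238 to 78980109 of the minus strand, was the secreted member with counts to test. It was at 120 and 122 CPM in WT, 117 and 126 in KO, 141 and 190 in L101P, 92.0 and 78.3 in E292V, and 152 and 150 in E690K. L101P and E690K lay above WT and KO, and E292V below, without overlap between these 3 sets of lines, which were read from the same values. LGALS3BP differed between lines (edgeR adjusted p = 0.00127). In L101P it was higher than in WT by 0.49 (log2, SE 0.12, adjusted p = 0.0427), a call kept in 8 of 19 alternatives and lost with the KO labels exchanged (adjusted p = 0.0787). Without the transduced L101P library the difference was 0.23.

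In E690K the LGALS3BP difference from WT was 0.37 (adjusted p = 0.103) and in E292V it was -0.51 (SE 0.12, adjusted p = 0.0846). L101P therefore had 3 called members, OAS3, OAS1 and LGALS3BP, all higher (3 of 43, against 3.94% of all genes called in either direction and 2.33% called higher). At an unadjusted p under 0.05 there were 12 members, against 3292 of all 17978 genes. E292V had none by edgeR (0 of 43, against 1.05%), and DESeq2 called 1 member there, LGALS3BP (2.4% of all genes). In E292V 8 members had an unadjusted p under 0.05 by edgeR, against 1857 of all genes. The 21 tested genes within 1 Mb of LGALS3BP had median differences of 0.02 (KO), 0.10 (L101P), -0.06 (E292V) and 0.15 (E690K). In the transduced L101P library KRT19, a keratin of simple epithelia, was high together with LGALS3BP and OAS1. KRT19 was at 204 and 459 CPM in L101P, 139 and 140 in WT and 80.8 and 62.4 in E292V. Of the other epithelial markers, KRT8 and KRT18 had fitted log2 differences from WT of 0.55 and 0.53 in L101P, EPCAM 0.41 and CDH1 0.01. In E690K, where LGALS3BP was higher, KRT19 differed from WT by 1.03, KRT8 and KRT18 by 0.24, EPCAM by 0.71 and CDH1 by -0.30. In E292V, where LGALS3BP was lower, KRT19 differed by -0.95, KRT8 by -0.22, KRT18 by -0.20, EPCAM by 0.65 and CDH1 by 0.16. In KO the differences were 0.87, 0.29, 0.24, 1.25 and 0.21 in that order, and LGALS3BP differed by 0.04. The part of these markers in the line differences was not tested.

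PARP9, DTX3L and PARP14, which lie close together on chromosome 3 and whose first pair form an ADP-ribosyl and ubiquitin ligase complex, all differed between lines (edgeR adjusted p = 0.0144, 0.0166 and 0.0452). PARP9 was at 17.9 and 17.4 CPM in WT, 21.3 and 19.6 in KO, 20.8 and 21.1 in L101P, 16.4 and 15.8 in E292V, and 15.1 and 14.6 in E690K. DTX3L was at 28.8 and 31.5 CPM in WT, 36.0 and 36.7 in KO, 38.7 and 35.9 in L101P, 25.5 and 29.7 in E292V, and 30.5 and 30.4 in E690K. PARP14 was at 55.3 and 54.1 CPM in WT, 61.6 and 66.5 in KO, 62.1 and 61.0 in L101P, 53.5 and 51.4 in E292V, and 53.7 and 55.5 in E690K.

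For each of the 3 genes, the 4 libraries of KO and L101P lay above the 6 others, a grouping read from these same values. No single contrast with WT passed the test: the differences in KO were 0.24, 0.30 and 0.26 and those in L101P 0.29, 0.35 and 0.21 for PARP9, DTX3L and PARP14 (adjusted p from 0.0689 to 0.304). PARP9 and DTX3L have overlapping exons on opposite strands, and the use of strand in counting is not given in the sources used here, so part of their reads may be shared. Of 21 alternatives, the any-line call held in 17 for PARP9, 18 for DTX3L and 9 for PARP14, whose call was lost with the KO labels exchanged (adjusted p = 0.0716).

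**Figure D3:**
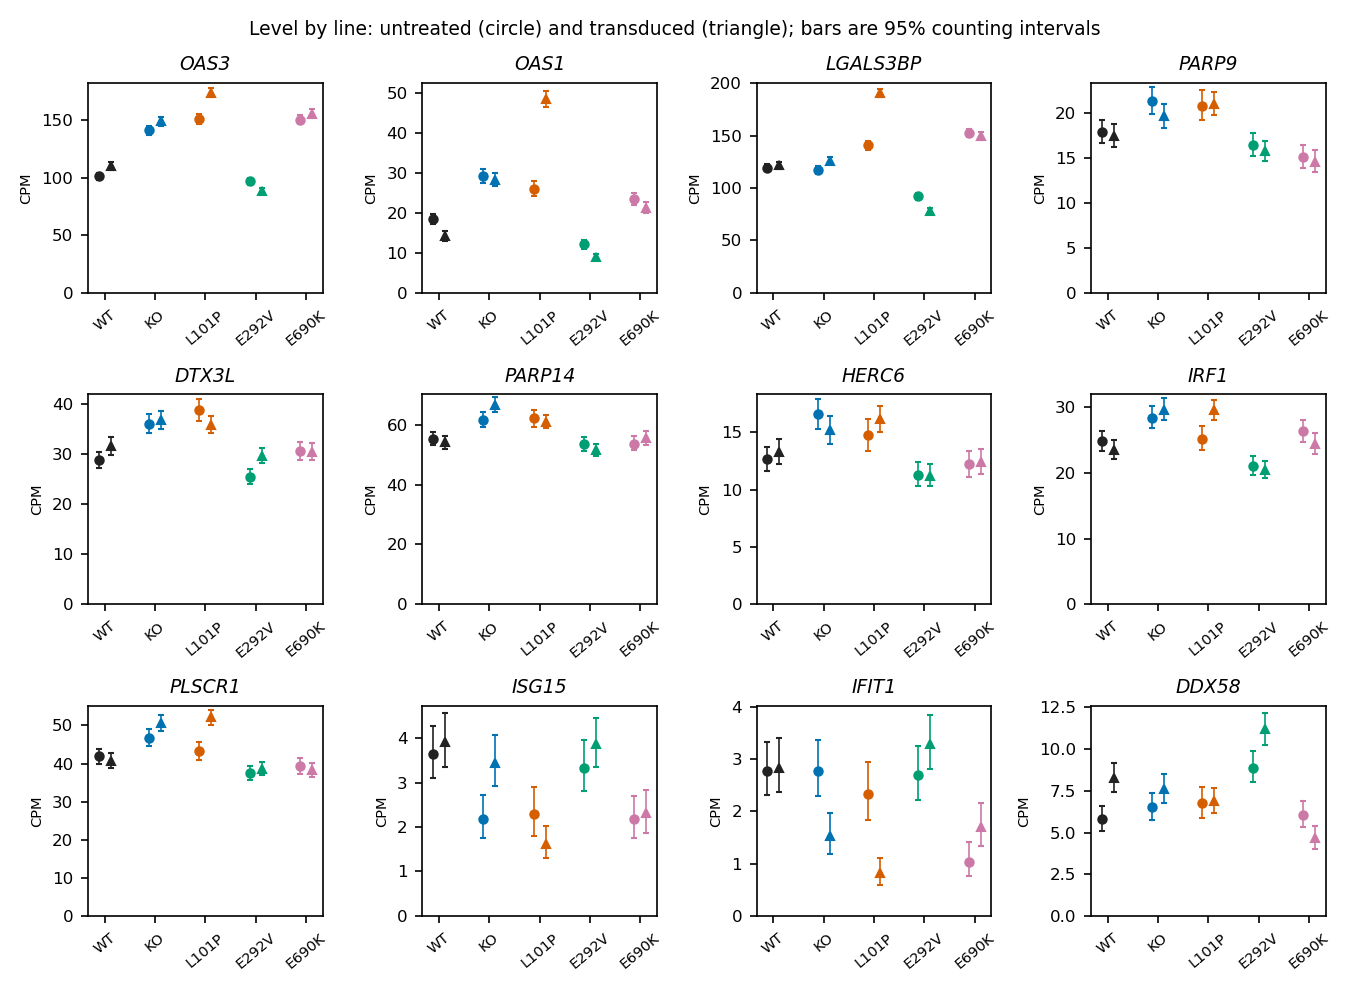
Level in CPM of 12 interferon-stimulated genes in each line, with a circle for the untreated and a triangle for the transduced library and bars for 95% counting intervals. Both KO and L101P points lie above the other lines for PARP9, DTX3L, PARP14, HERC6 and PLSCR1, and E690K joins them for OAS3 at 150 and 155 CPM.

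Of the transcription factors, IRF1, which is induced by interferon gamma and by inflammatory signals, differed between lines (edgeR adjusted p = 0.0336). It was at 24.8 and 23.5 CPM in WT, 28.4 and 29.6 in KO, 25.2 and 29.6 in L101P, 21.1 and 20.5 in E292V, and 26.3 and 24.4 in E690K. E292V was lowest without overlap, and L101P overlapped E690K. The IRF1 call held in 11 of 21 alternatives and was lost with the KO labels exchanged (adjusted p = 0.0549). An annotated antisense gene with 30 to 79 counts, AC116366.3, overlaps IRF1. STAT2, a subunit of the ISRE-binding complex, ranged from 36.5 to 46.8 CPM, both ends in E292V, and IRF9, the DNA-binding part of that complex, from 0.651 to 1.46 CPM. IRF7, which amplifies interferon transcription, ranged from 5.41 to 8.96 CPM, and none of these 3 passed the any-line test.

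Among the genes of ISG15 conjugation and removal, HERC6, a member of the HERC ligase family, differed between lines (adjusted p = 0.0281). HERC6 was at 12.6 and 13.3 CPM in WT, 16.6 and 15.2 in KO, 14.7 and 16.1 in L101P, 11.3 and 11.2 in E292V, and 12.2 and 12.4 in E690K, with KO and L101P above the rest, and the call held in 12 of 21 alternatives. ISG15 itself went the other way in its levels: it was at 3.64 and 3.90 CPM in WT, 2.19 and 3.45 in KO, 2.29 and 1.62 in L101P, 3.33 and 3.86 in E292V, and 2.18 and 2.30 in E690K. Its difference from WT was -0.91 (log2, SE 0.26) in L101P and did not pass the test (adjusted p = 0.0746). The E2 enzyme UBE2L6 ranged from 4.41 to 9.44 CPM, with a KO difference of -0.77 (adjusted p = 0.0554), HERC5, the main human ISG15 ligase, from 6.76 to 10.4 CPM, and the deconjugase USP18 from 8.32 to 13.4 CPM. TRIM25, a ubiquitin ligase that acts on RIG-I, ranged from 102 to 122 CPM, with both E690K libraries highest at 122. HERC6 and ISG15 thus had opposite orders in L101P and WT, although only the first passed the test across lines.

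The sensors passed no line test. DDX58, which encodes RIG-I, was at 5.79 and 8.26 CPM in WT, 6.51 and 7.60 in KO, 6.75 and 6.87 in L101P, 8.89 and 11.2 in E292V, and 6.07 and 4.65 in E690K (any-line adjusted p = 0.0769). Both E292V libraries were the highest. IFIH1, which encodes MDA5, ranged from 0.287 CPM in untreated WT to 1.40 CPM in transduced KO, with a KO difference of 1.94 (SE 0.51, adjusted p = 0.0775). DHX58, their regulator LGP2, stayed at or below 0.295 CPM.

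Of the membrane effectors, PLSCR1, a phospholipid scramblase, differed between lines (adjusted p = 0.0388). It was at 41.9 and 40.7 CPM in WT, 46.7 and 50.6 in KO, 43.3 and 52.1 in L101P, 37.5 and 38.7 in E292V, and 39.3 and 38.3 in E690K, with KO and L101P above the others. The PLSCR1 call held in 10 of 21 alternatives and was lost with no block for the pairing (adjusted p = 0.0509) and with the KO labels exchanged (adjusted p = 0.0766). IFITM3, which blocks the fusion of endocytosed viruses, ranged from 11.8 CPM in transduced E292V to 18.0 CPM in transduced L101P, and IFITM2 from 32.3 CPM in transduced E690K to 51.5 CPM in transduced L101P. IFITM1 and IFITM2 have overlapping exons on the same strand, and the IFITM genes resemble each other in sequence, so their counts, those of IFITM3 included, are uncertain. IFI6 ranged from 1.15 to 2.68 CPM, IFI27 from 0.151 to 0.467 CPM and BST2 from 0 to 0.168 CPM. RSAD2, which encodes viperin, stayed at or below 0.107 CPM.

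The remaining effectors were mostly low. IFI44 differed between lines (adjusted p = 0.0302) on few counts: 16 and 6 in WT, 0 and 0 in KO, 0 and 2 in L101P, 34 and 62 in E292V, and 2 and 10 in E690K. Most of its counts came from E292V, and without that pair the call was lost (adjusted p = 0.328). MX1, a dynamin-like GTPase that restricts influenza virus, ranged from 0.384 to 1.18 CPM and MX2 from 0 to 0.271 CPM. SAMD9, a translation-inhibiting antiviral factor, ranged from 8.12 to 14.2 CPM, SP100, a nuclear body protein, from 20.6 to 26.8 CPM, and IFI35 from 15.9 to 29.4 CPM. SAMD9L was highest in L101P at 2.83 and 2.62 CPM, against 1.18 to 1.95 CPM elsewhere, with a difference from WT of 0.92 (adjusted p = 0.0697). TRIM22, CMPK2 and EPSTI1 reached at most 1.08, 0.238 and 0.246 CPM. Of this group IFI44 was the member called across lines.

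The vector question was whether transduction moved the programme. No member passed edgeR's test of the vector effect with line as a block (0 of 43, against 0% of all 17978 genes), none had an unadjusted p under 0.05, where 1236 of all genes did, and DESeq2 called none. The smallest adjusted p was 0.742. Fitted changes ran from -0.44 to 0.82 (log2) with a median of 0.01, against 0.00 over all genes, and 24 of the 43 members lay above 0. The count was also 0 with the labels of the KO pair exchanged and without each pair of libraries in turn. The untreated libraries held EGFP reads, so the contrast is not one of cells with and without any vector-related RNA. Neither readout of the vector was called by edgeR: ABCA3 changed by -0.49 (adjusted p = 0.935) and EGFP by 0.80 (adjusted p = 0.942). A count of 0 called members therefore does not show an absence of response to transduction.

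Within pairs, 1 library against 1 has no replicate check, and changes of 1.5-fold or more were counted over the 32 members that averaged 1 CPM or more. In WT none was higher, against 2.36% of all such genes, and IFI6 was lower (background 1.4%). In the pair labelled KO ISG15 was higher (background 1.57%) and IFIT1 lower (1.94%). In L101P OAS1 and OASL were higher (background 4.64%) and IFIT1 lower (3.53%). In E292V none was higher (background 2.94%) and IRF7 was lower (2.41%), and in E690K IFIT1 and OASL were higher (background 1.35%) and IFIT2 lower (1.43%). The median changes were -0.03, 0.02, 0.05, 0.01 and -0.03 in that order, and IFIT1 was past the limit upward in 1 pair and downward in 2.

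**Figure D4:**
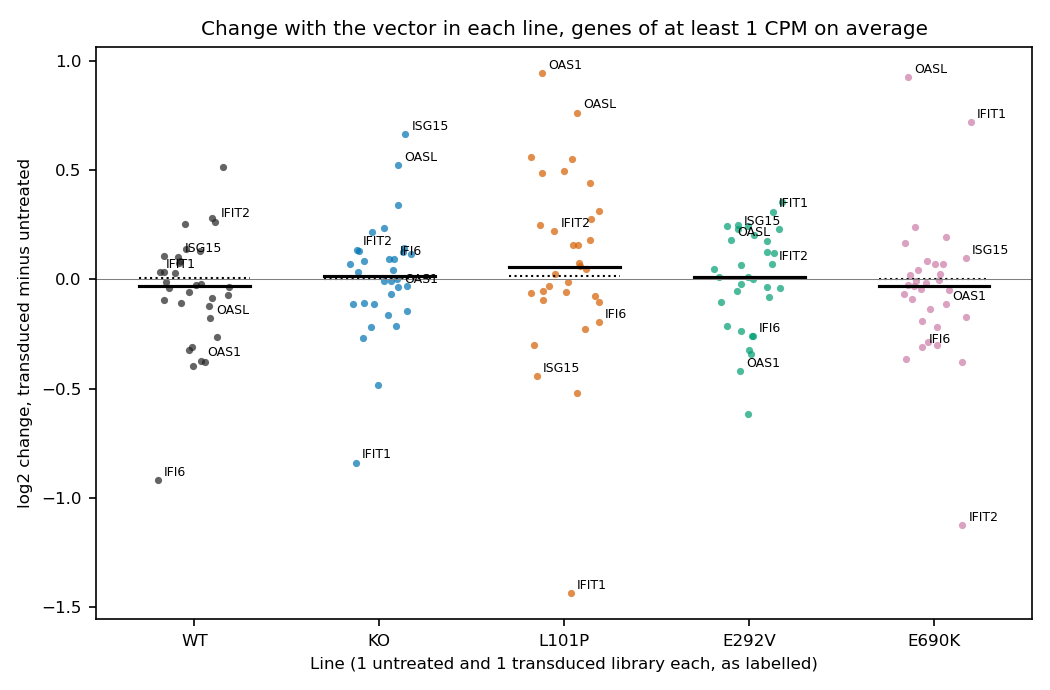
Log2 change in the transduced against the untreated library of each line, as labelled, with 1 point for each of 32 interferon-stimulated genes averaging 1 CPM or more, a solid bar at their median and a dotted bar at the median of all such genes. The medians lie between -0.03 and 0.05 in the 5 pairs, and OAS1 stands at 0.94 in L101P.

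OAS1 had the largest upward change of the L101P pair among these members, 0.94 on the log2 scale, against -0.37 in WT, -0.03 in KO, -0.42 in E292V and -0.11 in E690K. IFI35, whose protein associates with the factor NMI, was at 20.8 and 29.4 CPM in L101P, 26.1 and 19.8 in WT, 25.0 and 21.4 in KO, 21.1 and 19.6 in E292V, and 17.7 and 15.9 in E690K. The IFI35 change was upward in L101P and downward in the 4 other lines. For LGALS3BP the log2 change was 0.48 in L101P, against -0.21 to 0.12 in the others. These are differences between single libraries, with no replicate of the L101P pair, and the L101P pair was also the pair with the largest gap in depth.

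The rest of the pathway was taken from 36 genes listed outside the set, of which 25 passed the filter. Of the 9 interferon ligand genes, IFNB1, IFNA2, IFNK, IFNL1, IFNL2 and IFNG were listed at 0 in the 10 libraries, IFNL3 had 0 to 6 counts and IFNA1, which has near-identical relatives, 0 to 18 counts. IFNE, an epithelial type I interferon, was at 1.80 to 3.04 CPM. The receptor and signalling genes were present in all lines: IFNAR1 ranged from 47.5 to 53.4 CPM, IFNAR2 from 1.65 to 2.47 CPM, JAK1 from 238 to 358 CPM and TYK2 from 72.4 to 80.1 CPM.

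Of the 25 tested pathway genes, 4 (16%, against 13% of all genes) differed between lines by edgeR, among them SOCS3 (adjusted p = 0.00282), TMEM173 (0.0351) and SAMHD1 (0.0365). SOCS3, a feedback inhibitor of JAK kinases, was at 32.0 and 32.6 CPM in WT, 23.4 and 16.8 in KO, 21.0 and 14.3 in L101P, 32.7 and 41.7 in E292V, and 20.0 and 18.6 in E690K. WT and E292V, the lines lowest for OAS3, lay above the 3 other lines for SOCS3. SOCS3 was lower than in WT in L101P (log2 difference -0.85, adjusted p = 0.0185) and in E690K (-0.69, adjusted p = 0.0360, and 0.0670 with the KO labels exchanged). The first of these held in 17 of 19 alternatives, and the fit without the transduced WT library was among those that lost it. The second held in 14 of 19 and was also lost without any 1 of the WT or E690K libraries.

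TMEM173, which encodes STING, was at 0.317 and 0.256 CPM in E690K, against 0.572 to 1.58 CPM in the other libraries, a difference from WT of -1.78 (adjusted p = 0.0366) that was lost without any 1 of the WT or E690K libraries (adjusted p from 0.0626 to 0.259) and without the KO or the E292V pair. SAMHD1, which degrades deoxynucleotides, was lowest in E292V at 26.3 and 26.0 CPM, against 30.5 to 34.6 CPM elsewhere; its call held in 10 of 21 alternatives and was lost without the E292V pair (adjusted p = 0.809) and with the KO labels exchanged (adjusted p = 0.0615). By edgeR no pathway gene was called in KO or in E292V against WT. DESeq2 called 1 each, SOCS3 and SAMHD1 (against 4.14% and 2.4% of all genes). By edgeR 3 pathway genes each had an unadjusted p under 0.05, against 2532 and 1857 of all 17978 genes. None was called in the vector effect either, where 1 had an unadjusted p under 0.05 and DESeq2 called 0.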

How the data were processed

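The authors deposited whole-number counts per gene for 10 libraries, with 1 library for each of 5 lines and 2 treatments. The submitters' processing notes name GRCh38, featureCounts, Subread, edgeR and limma, with no versions or roles. The annotation and the use of strand are not given in the sources used here, and 17 of the 48 members have exons that overlap another counted gene. Of the counts from 1 to 10, 81.4% were even, against 51.5% above 1000, which is the form of a table that counts both mates of a pair. Wilson 95% intervals therefore used the count divided by 2, and they cover counting error only.

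Counts were fitted with edgeR 4.0.16 in R 4.3.3 (filterByExpr, 17978 genes, TMM factors 0.972 to 1.03, common dispersion 0.0168, 4 residual degrees of freedom) as line plus vector over the 10 libraries. The quasi-likelihood test was used with Benjamini-Hochberg adjustment over all tested genes and a threshold of 0.05. The standard error of a log2 difference was derived from its F statistic (the difference over the root of F). The submitters state no separate cultures within a line, so p-values measure the spread between these libraries, which may be technical, and a line difference is judged by the departure from additivity. Libraries were paired by cell line, and the deviations of the 2 libraries of a line correlated at 0.18 to 0.44 over genes.

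Alternatives were DESeq2 1.42.0 (a likelihood-ratio test for the test over all lines, and Wald tests otherwise), DESeq2 size factors, no filter on low counts, counts divided by 2, exchanged labels of the KO pair, no replicate block and leaving out libraries or pairs. A test of the vector effect in L101P against the other lines, tried after seeing the data, is not used, because that line has 1 pair and the OAS1 change had prompted it. Members and lists were chosen with earlier results of these data known. Named members were those called in a test and a standing list (ISG15, IFIT1, MX1, OAS1, IFITM3, IFI27, STAT2, IRF9, DDX58, IFIH1, CXCL10 and BST2), and the others were given by their range or where they came close to a threshold. The fit was tested on simulated data. Sequences came from RefSeq, GRCh38.p14. The values of 1 pathway gene are not reported here.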

Additional observations from a re-analysis of the deposited data

Results flagged for a closer look

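In 33 sets of the log2 vector change over the 5 lines, for the 32 members averaging 1 CPM or more and for the median member, 3 had a line whose distance from its nearest neighbour took up more than 0.71 of the whole range, a limit that chance passes in about 1 in 20 sets. OAS1 stood apart in L101P at 0.94, where the other lines lay between -0.42 and -0.03. IFIT2 stood apart in E690K at -1.12, where the others lay between 0.07 and 0.26, and its transduced E690K level was 0.896 CPM. SAMD9L stood apart in E690K at -0.38, where the others lay between -0.10 and -0.01. The transduced L101P library was also the most deeply sequenced of the series.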

How the results depend on the processing

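The signed differences of OAS3, OAS1 and LGALS3BP that passed a line contrast kept their sign in the alternatives run, and the median vector change over members, 0.01, was -0.02 without the L101P pair and below 0 without the E292V pair. The count of members with a vector effect was 0 in each alternative run. Without the filter on low counts, more members were called, of 46 tested: 20 across lines in place of 10 (15.1% of all genes), 5 each in KO (4.05%), L101P (5.93%) and E690K (6.84%), and 2 in E292V (2.73%). DESeq2 called 16 across lines (19% of all genes), 1 in E292V (2.4%), 3 in KO (4.14%), 4 in E690K (8.14%) and 6 in L101P (6.88%). Leaving out libraries or pairs gave 3 to 20 members across lines, 0 to 2 in E292V, 0 to 5 in KO, 1 to 9 in E690K and 1 to 8 in L101P. Across lines, the count was 3 without the untreated and 5 without the transduced KO library, 5 without either E292V library, 6 without the untreated and 5 without the transduced E690K library, and 20 and 17 without the untreated and the transduced L101P library. In KO against WT it was 0 without any 1 WT or KO library and 5 without either L101P library; in E690K against WT it was 9 without either L101P library, and in L101P against WT 8 without the untreated L101P library and 1 without the transduced WT library. In E292V against WT it was 2 without either L101P library and 1 without the untreated E292V library.

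OAS3, OAS1 and LGALS3BP kept the any-line call in 21 of 21 alternatives, IFI44 in 13, HERC6 in 12, IRF1 in 11 and PLSCR1 in 10. The fit with no replicate block gave 9 members across lines (11.4% of all genes), 2 in L101P (2.85%) and 1 each in KO (0.918%) and E690K (4.02%). It gave 0 in E292V (0.723%) and for the vector (0%). The pairing thus changed the call of PLSCR1 (adjusted p = 0.0509 without the block) and of LGALS3BP in L101P (adjusted p = 0.0549). The cause of these shifts was not tested. With 1 library per line and treatment, members below about 1 CPM rest on few counts, and a line effect cannot be told apart from an effect of the culture.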
